A study of Homo sapiens with 60 samples.

Results

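Pinelliae Tuber, the dried tuber of Pinellia used in East Asian medicine, was given to HT29 cells as an ethanol extract, and its medium dose was compared here with its low dose. The 6 libraries compared, of 60 in the series, are the 3 labelled with the medium dose (100 µg/mL) and the 3 labelled with the low dose (20 µg/mL). The rule that picks them uses the treatment and dose given in the labels. HT29 is an established human colorectal adenocarcinoma line, and total RNA was sequenced after 24 h of treatment. Both groups carry sample codes of the same set (code set 10), so the comparison does not run across code sets and needs no vehicle. The series covers 8 herbal extracts at 3 doses each beside a vehicle of DMSO, which the labels give at 0.1% and the series text at 2%. The dried material was extracted in 70% ethanol under ultrasound. The high dose (500 µg/mL, n = 3) and vehicle (n = 3) are shown as context, without a test. The vehicle libraries carry codes of another set, so vehicle values set beside those of a dose run across code sets. The question is which genes respond when the dose is raised 5 times from the lowest one used. No label states whether the replicates come from separate cultures, so the spread behind each p-value may be technical. In the main test that spread was taken from 54 libraries of 19 groups of the series, these 6 among them.

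Cells keep the sterol content of their membranes within narrow limits through a pair of opposed programs. When sterol in the endoplasmic reticulum is low, SCAP carries the transcription factor SREBP2 to the Golgi, where it is cut and released to switch on the genes of cholesterol synthesis and uptake. INSIG1 holds that complex back when sterol is plentiful. Liver X receptors (LXR), nuclear receptors that bind oxysterols, switch on genes of sterol export such as ABCA1 and ABCG1, and MYLIP, which limits the uptake of lipoprotein cholesterol. Intestinal epithelium both absorbs and makes cholesterol.

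Raising the dose changed few genes, and all 6 that passed the test are members of the lists of LXR targets, cholesterol genes or fatty acid synthesis genes. The lists were chosen with earlier results of these data known, so this membership describes the genes and is not a test. The sterol exporter ABCG1 rose 2.55-fold and MYLIP rose 1.32-fold, while ACSS2, SQLE, INSIG1 and LSS fell. In edgeR's quasi-likelihood test with Benjamini-Hochberg adjustment over 16763 genes, 2 genes rose (0.0119% of those tested) and 4 fell (0.0239%) at an adjusted p under 0.05. At an unadjusted p under 0.05, 149 genes were higher at the medium dose (0.889%) and 195 lower (1.16%). The 3 libraries of one dose lay beyond the 3 of the other in 1031 genes with the medium dose higher (6.15%) and in 956 with it lower (5.70%). The median log2 fold change over all genes tested was 0.002. Levels below are counts per 1e6 counts of the library (CPM), scaled between libraries by TMM, changes are log2 fold changes of the medium over the low dose with their SE, and adjusted p-values are from this test. The plot of fold change against expression shows how small the response is beside the scatter of weakly expressed genes.

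**Figure D1:**
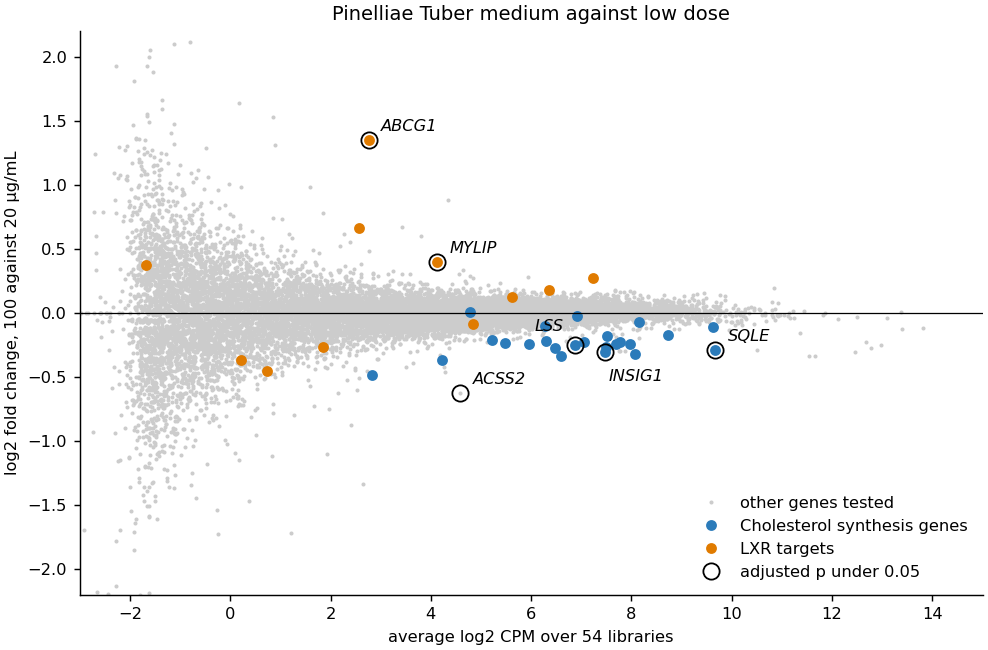
Log2 fold change of 100 over 20 µg/mL (vertical axis) against average log2 CPM (horizontal axis) for each gene tested with a fold change within the axis; blue points are cholesterol genes, orange points LXR targets and circles the 6 genes with an adjusted p under 0.05. ABCG1 at 1.35 and ACSS2 at -0.62 lie outside most genes of like expression, and nearly all blue points lie below 0.

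ABCG1, an ATP-binding transporter that moves cholesterol out of the cell to lipoprotein particles, had the largest change among the 6. Its level was 7.72, 6.41 and 8.38 CPM in the low-dose libraries and 18.9, 18.8 and 20.0 CPM in the medium-dose libraries. Every medium-dose library lay above every low-dose library, with no overlap. The log2 fold change was 1.35 ± 0.11 (n = 3 and 3, adjusted p = 2e-11). ABCG1 (ENSG00000160179) lies at chr21:42199689-42297244 of GRCh38. Vehicle libraries held 4.61, 4.38 and 5.47 CPM and high-dose libraries 15.7, 13.9 and 17.3 CPM, so that the medium dose gave the highest values of the series' 3 Pinelliae Tuber doses.

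MYLIP, a ubiquitin ligase that limits the uptake of lipoprotein cholesterol, stood at 18.2, 19.8 and 18.9 CPM at the low dose. At the medium dose it stood at 24.8, 26.3 and 23.8 CPM. The groups did not overlap, and the high-dose libraries (25.5, 23.1 and 24.2 CPM) lay within the range of the medium dose or close to it. MYLIP rose by 0.40 ± 0.06 (adjusted p = 7.6e-04). MYLIP (ENSG00000007944) lies at chr6:16129125-16148248.

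ABCA1, which loads cholesterol onto apolipoprotein A-I, did not pass the test. Its levels were 5.71, 6.77 and 7.22 CPM at the low dose and 10.1, 10.7 and 10.5 CPM at the medium dose. The groups did not overlap, and the log2 fold change was 0.67 ± 0.16 (adjusted p = 0.208). High-dose libraries were spread from 6.32 to 10.4 CPM. In the fit of the 6 libraries alone, ABCA1 passed the threshold at 0.66.

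Of 13 LXR targets listed, 11 were tested; 2 rose and 0 fell. Their median log2 fold change was 0.177, against 0.002 for all genes tested. At an unadjusted p under 0.05, 5 were higher and 1 lower, and 6 were higher and 2 lower without overlap. Over all genes tested, 0.889% were higher and 1.16% lower at that threshold, and 6.15% higher and 5.70% lower without overlap. SREBF1, which encodes the regulator of fatty acid synthesis SREBP1, stood at 155, 153 and 161 CPM and then 185, 199 and 184 CPM (0.28 ± 0.10, adjusted p = 1). LPCAT3, a phospholipid-remodelling enzyme, had 0.18 ± 0.09, and NR1H3, which encodes LXRalpha itself, 0.12 ± 0.08. Not every member leaned the same way. PLTP, a plasma phospholipid carrier expressed near 1 to 2 CPM, had -0.45 ± 0.21, and SMPDL3A had -0.26 ± 0.14. NR1H2, which encodes LXRbeta, had -0.09 ± 0.13.

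Among genes of cholesterol synthesis, 3 fell and 0 rose of 24 tested. SQLE, the monooxygenase that turns squalene into its epoxide and a controlled step of the pathway, was at 764, 775 and 765 CPM at the low dose and 636, 615 and 636 CPM at the medium dose. Both groups were tight and lay apart. It fell by 0.29 ± 0.04 on the log2 scale (adjusted p = 2.1e-04). SQLE (ENSG00000104549) is on chromosome 8.

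LSS, the next enzyme, which folds the epoxide into lanosterol, was at 119, 113 and 113 CPM and then 98.1, 95.5 and 97.5 CPM. It fell by 0.25 ± 0.05 (adjusted p = 0.0118), without overlap. This call was the least firm of the 6. Without medium-dose replicate 1, 2 or 3 or low-dose replicate 1 its adjusted p was 0.066, 0.16, 0.083 and 0.31, with log2 fold changes from -0.26 to -0.23. LSS (ENSG00000160285) lies at chr21:46188141-46228824 on the minus strand.

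INSIG1, the sterol-dependent retainer of SCAP and itself an SREBP target, was at 187, 179 and 177 CPM at the low dose. It was at 147, 152 and 140 CPM at the medium dose and at 112, 101 and 113 CPM at the high dose. The 3 doses formed separate steps. INSIG1 fell by 0.31 ± 0.05 from low to medium (adjusted p = 0.00151), and the call ended without medium-dose replicate 3 (-0.28, adjusted p = 0.07). INSIG1 (ENSG00000186480) lies at chr7:155297776-155310235.

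ACSS2, the cytosolic enzyme that makes acetyl-CoA from acetate for lipid synthesis and a known SREBP target, was listed with the fatty acid genes. Its levels were 24.3, 21.8 and 22.5 CPM at the low dose and 15.4, 13.8 and 15.2 CPM at the medium dose. No library of one dose reached the range of the other. It fell by 0.62 ± 0.07 (adjusted p = 7.3e-08), the largest fall among the genes called. At the high dose it was at 10.6, 13.1 and 10.2 CPM, and vehicle held 22.2, 22.0 and 23.0 CPM, in the range of the low dose. ACSS2 (ENSG00000131069) lies at chr20:34872146-34927962.

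**Figure D2:**
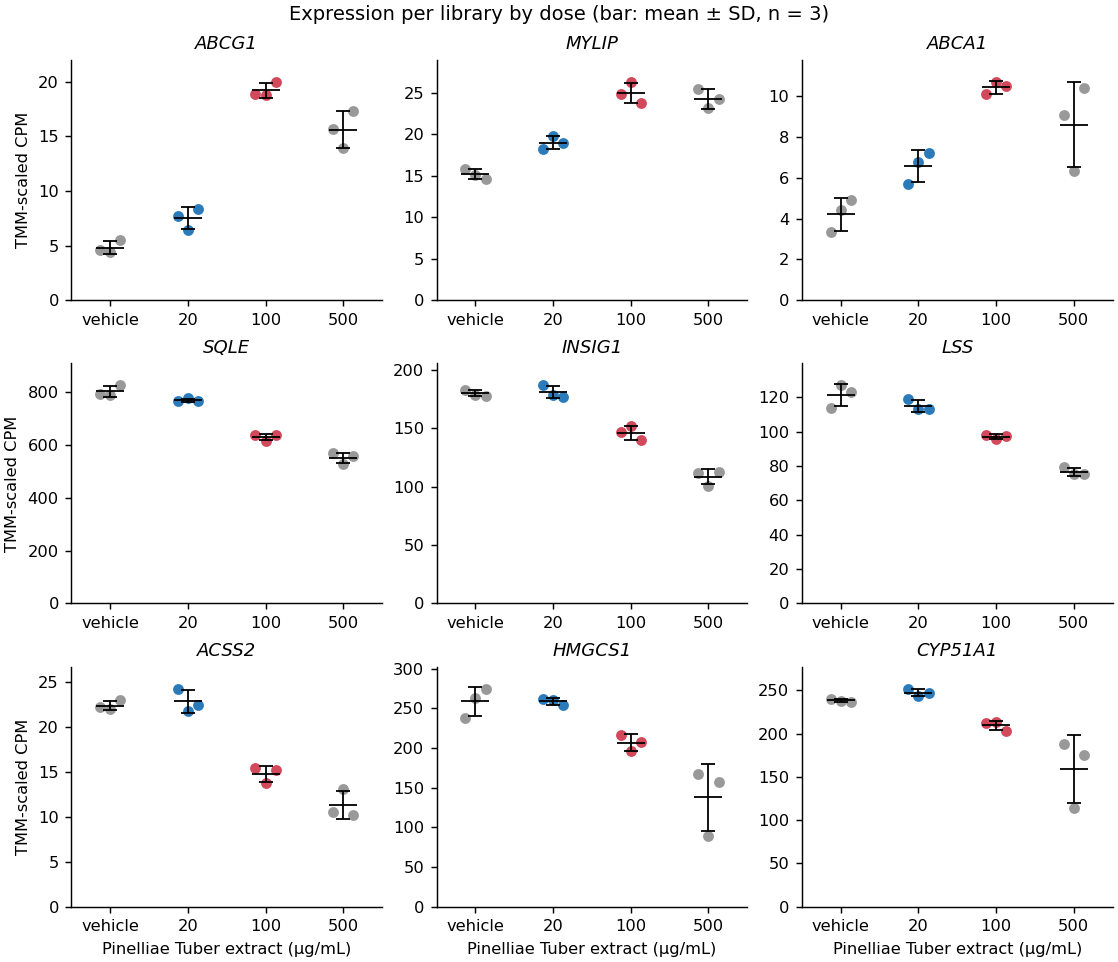
TMM-scaled CPM (vertical axes, from 0) in each library of vehicle and of Pinelliae Tuber at 20, 100 and 500 µg/mL (horizontal axes) for 9 genes; points are libraries and bars the mean ± SD of 3. The 20 and 100 µg/mL points are apart in each of the 9 panels.

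The other members of the cholesterol list did not pass the test of 54 libraries, and their values are given as measured. Of the 24, 23 had a negative log2 fold change, 19 were lower at an unadjusted p under 0.05 and 22 were lower without overlap between the doses. The background for lower genes was 1.16% and 5.70%. The list median was -0.237, with a range from -0.483 to 0.009. These are counts over genes that share regulators, and they are not independent of each other.

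In the early steps, HMGCS1, which makes HMG-CoA, was at 262, 260 and 254 CPM and then 217, 196 and 207 CPM (-0.32 ± 0.11). It was lower in each medium-dose library. The kinase MVK had -0.23 ± 0.07, the decarboxylase MVD -0.24 ± 0.10, the isomerase IDI1 -0.27 ± 0.09 and FDPS, which makes farnesyl diphosphate, -0.18 ± 0.07. PMVK, the kinase between MVK and MVD, was at 30.3, 28.2 and 25.2 CPM and then 30.5, 28.8 and 24.8 CPM (0.01 ± 0.15), the single member with a positive value.

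In the sterol-specific steps, FDFT1, which makes squalene, had -0.24 ± 0.07. CYP51A1, which removes the first methyl group of lanosterol, was at 252, 243 and 247 CPM and then 212, 213 and 203 CPM (-0.24 ± 0.08). MSMO1, the next demethylase, was at 96.4, 86.8 and 93.9 CPM and then 77.1, 71.2 and 71.4 CPM (-0.33 ± 0.10). The 2 groups of libraries were apart for each of these. HSD17B7 had -0.37 ± 0.09, NSDHL -0.22 ± 0.07, EBP -0.28 ± 0.11 and SC5D -0.23 ± 0.06. DHCR7, a late reductase, had -0.18 ± 0.08. From HMGCS1 to SC5D in the plot in pathway order, values ran from -0.37 for HSD17B7 to -0.18 for FDPS, apart from PMVK.

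**Figure D3:**
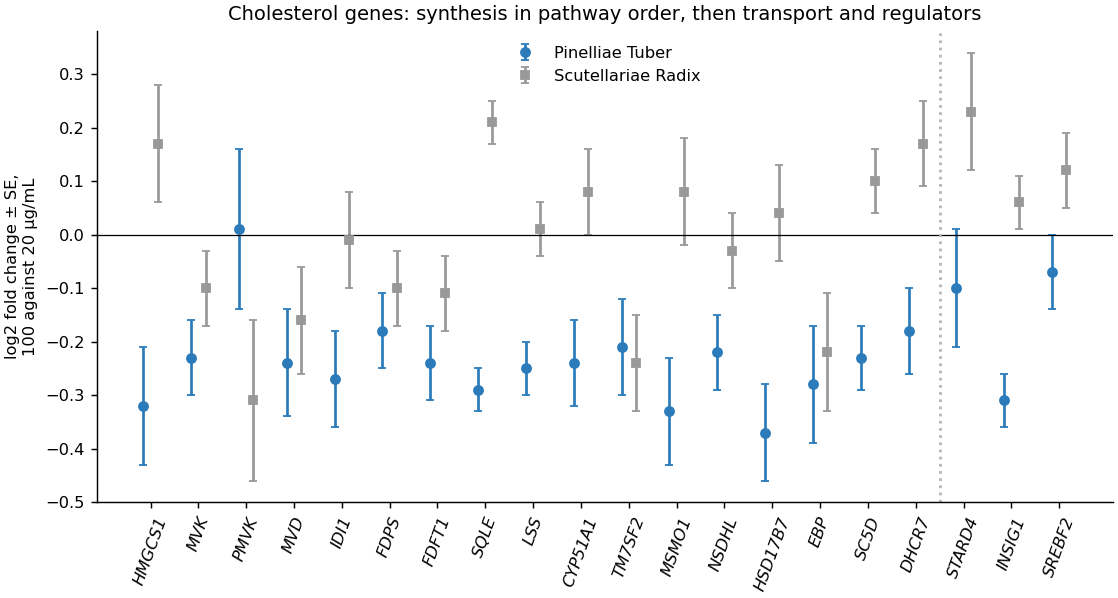
Log2 fold change of 100 over 20 µg/mL ± SE (vertical axis) for 20 genes of the cholesterol list, with enzymes in pathway order from the left and genes of transport and regulation right of the dotted line. Pinelliae Tuber (blue circles) lies below 0 for all of these but PMVK; Scutellariae Radix (grey squares, same doses) is spread on both sides of 0.

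Among genes of transport and regulation, the sterol carrier STARD4 had -0.10 ± 0.11. SREBF2, which encodes SREBP2, was at 281, 282 and 286 CPM and then 270, 272 and 269 CPM (-0.07 ± 0.07).

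How many of these genes passed differed with the libraries in the fit, and the reason was not tested. Each gene's spread came from 54 libraries of 19 groups, among which 3 stand apart in ribosomal protein or mitochondrial share. They are vehicle replicate 1 (7.20% ribosomal protein), Scutellariae Radix low-dose replicate 3 (9.35%) and Pinelliae Tuber high-dose replicate 2 (14.3% mitochondrial), and none is among the 6. Without these 3, 25 genes were called, with 6 higher and 19 lower, 16 of them from the cholesterol list. The fit of the 6 libraries alone called 22, of which 18 were lower and 11 from the cholesterol list, and 4 LXR targets rose. All 6 genes of the main result were called in both. In the 18 libraries of code set 10 alone, 2 were called, ABCG1 and ACSS2. The cholesterol list's median stayed between -0.258 and -0.214 in all settings tried.

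The change was of like size in each library. Relative to the low-dose mean of each gene, the cholesterol list's median was 0.050, -0.028 and -0.003 in the low-dose libraries. It was -0.208, -0.250 and -0.234 in the medium-dose libraries. The 3 medium-dose libraries thus lie close together and below the low dose, and no single one carries the difference. At the high dose the values were -0.411, -0.635 and -0.429, with replicate 2, the library that stands apart, the lowest. Vehicle libraries, which are of another code set, were at 0.051, 0.050 and 0.061, near the low dose. The LXR list was at -0.008, 0.024 and 0.040 at the low dose, 0.155, 0.190 and 0.134 at the medium dose and 0.107, 0.280 and 0.183 at the high dose. For this list the medium and high doses overlap.

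**Figure D4:**
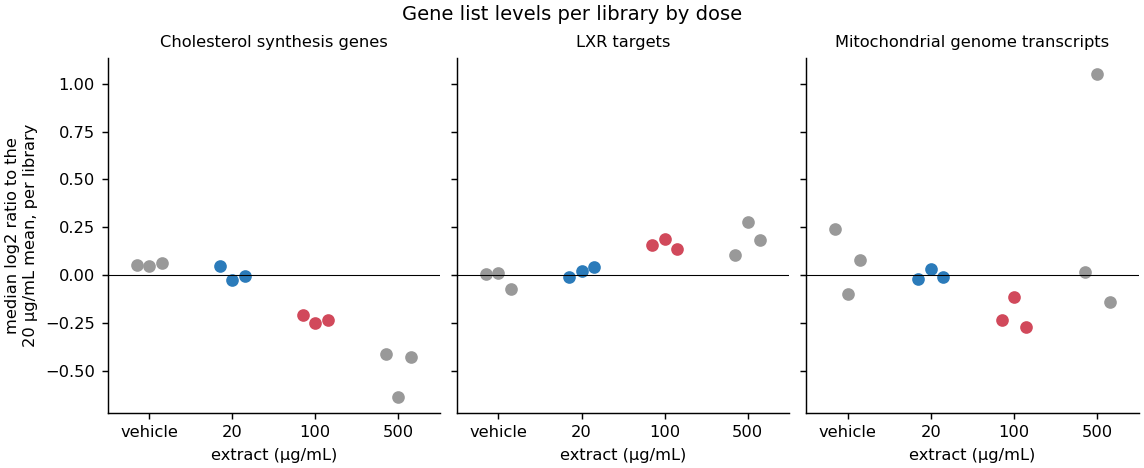
Median over the genes of a list of the log2 ratio to the gene's mean at 20 µg/mL (vertical axis) in each library of vehicle and of Pinelliae Tuber at 20, 100 and 500 µg/mL (horizontal axis). Cholesterol genes step down from 20 to 100 and to 500 µg/mL, LXR targets are higher at 100 than at 20 µg/mL, and mitochondrial transcripts vary most within vehicle and 500 µg/mL.

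The promoters of several of these genes are shown because 23 of the 24 cholesterol genes had values of the same sign, and that of MYLIP, which rose, for comparison. SREBP acts together with NF-Y, a factor that binds the CCAAT box. The windows are the 250 bases before each transcription start in RefSeq (GRCh38.p14), with CCAAT on either strand (ATTGG when read on the strand shown) and the sterol element TCACNCCAC in capitals. Of the 6 called genes, INSIG1, LSS and MYLIP are shown and ABCG1, SQLE and ACSS2 are not. ACSS2 has more than 1 window, and the CCAAT box of its first begins 123 bases before that start. SREBF2 and MVK were not called and were picked for their motifs, a sterol element and 5 CCAAT boxes. The 5 windows are read 5′ to 3′ on the gene's own strand, at chr7:155297628-155297877 (plus) for INSIG1, chr21:46228775-46229024 (minus) for LSS, chr12:109573544-109573793 (plus) for MVK, chr22:41832855-41833104 (plus) for SREBF2 and chr6:16128836-16129085 (plus) for MYLIP.
INSIG1: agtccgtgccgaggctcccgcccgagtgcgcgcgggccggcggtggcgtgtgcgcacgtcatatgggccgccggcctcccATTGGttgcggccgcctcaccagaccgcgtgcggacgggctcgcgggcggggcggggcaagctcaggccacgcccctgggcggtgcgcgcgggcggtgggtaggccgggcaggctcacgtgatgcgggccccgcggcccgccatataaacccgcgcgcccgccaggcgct
LSS: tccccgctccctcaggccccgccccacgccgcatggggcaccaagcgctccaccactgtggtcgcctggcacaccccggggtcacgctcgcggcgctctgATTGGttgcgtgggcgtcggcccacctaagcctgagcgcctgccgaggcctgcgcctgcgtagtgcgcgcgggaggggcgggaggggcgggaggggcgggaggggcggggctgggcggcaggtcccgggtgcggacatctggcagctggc
MVK: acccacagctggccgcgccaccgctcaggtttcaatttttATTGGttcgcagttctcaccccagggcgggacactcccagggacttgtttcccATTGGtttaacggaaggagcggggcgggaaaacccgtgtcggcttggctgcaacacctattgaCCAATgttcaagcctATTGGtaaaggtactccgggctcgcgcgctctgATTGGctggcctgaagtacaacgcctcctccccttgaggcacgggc
SREBF2: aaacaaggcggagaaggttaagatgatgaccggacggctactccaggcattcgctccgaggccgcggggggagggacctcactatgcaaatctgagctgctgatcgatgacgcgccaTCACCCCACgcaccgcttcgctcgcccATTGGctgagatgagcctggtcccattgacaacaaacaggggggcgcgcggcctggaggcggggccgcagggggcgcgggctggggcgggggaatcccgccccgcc
MYLIP: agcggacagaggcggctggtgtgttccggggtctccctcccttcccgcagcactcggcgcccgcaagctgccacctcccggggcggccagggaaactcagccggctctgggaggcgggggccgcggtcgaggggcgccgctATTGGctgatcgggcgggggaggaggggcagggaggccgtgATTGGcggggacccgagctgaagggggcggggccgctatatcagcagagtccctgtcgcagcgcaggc
The CCAAT box begins 170 bases before the start in INSIG1 and 150 in LSS, and in MVK the 5 begin 210, 157, 94, 79 and 46 bases before it. In SREBF2 the sterol element begins 133 bases before the start and the CCAAT box 106, so the pair lie close together. MYLIP has CCAAT boxes 109 and 68 bases before its start.

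CCAAT was in 18 of 23 windows of the cholesterol list (78.3%), which cover 18 of its genes, 16 of them with a match. Of all 35116 windows of the same length, 32% held it. These are windows of all genes, expressed in these cells or not, while the list windows are of tested genes only. LXR targets had it in 5 of 15 windows (33.3%) and fatty acid genes in 7 of 16 (43.8%). The exact letters TCACNCCAC, on either strand, were in 1 of 23 windows of the cholesterol list and in 0.883% of all windows. The 2 motifs share no letters in the SREBF2 window. Such matches describe letters only, and no binding was measured.

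Fatty acid synthesis genes, the other SREBP program, did not move together. Of 12 tested, ACSS2 fell and 0 rose, with a list median of 0.070. At an unadjusted p under 0.05, 2 were higher and 2 lower, and 4 were higher and 3 lower without overlap. Over all genes tested, 0.889% were higher and 1.16% lower at that threshold, and 6.15% higher and 5.70% lower without overlap. FASN, the fatty acid synthase, was at 1010, 1020 and 1090 CPM and then 1090, 1120 and 1050 CPM (0.06 ± 0.13), with overlap. SCD, the desaturase, had 0.08 ± 0.09, the carboxylase ACACA 0.12 ± 0.13 and the citrate lyase ACLY -0.07 ± 0.06. ACSL3, which activates long-chain fatty acids on lipid droplets, was at 258, 247 and 260 CPM and then 286, 279 and 296 CPM (0.17 ± 0.05, adjusted p = 0.909). DESeq2 called ACSL3. FADS1, a desaturase of polyunsaturated fatty acids, had -0.30 ± 0.13. SREBF1 is in this list and in that of LXR targets.

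Outside these lists, a selection of genes expressed above 2 on the log2 CPM scale is given as values that did not pass. Some lower genes beyond this selection had smaller unadjusted p-values than several of the higher genes named. They include MTFR1L (-0.20 ± 0.06), LPIN1 (-0.21 ± 0.07), TMEM97 (-0.13 ± 0.04) and ALKBH3 (-0.18 ± 0.06). The selection therefore does not show how many genes near the threshold were lower or higher. C6orf223 was at 7.3, 5.2 and 5.21 CPM and then 4.23, 4.04 and 3.44 CPM, without overlap (-0.60 ± 0.13, adjusted p = 0.0643), and DESeq2 called it. ALDOC, a glycolytic aldolase, had -0.32 ± 0.09, and TTC39A -0.24 ± 0.06. On the higher side, CAV1, the coat protein of caveolae, was at 7.92, 9.10 and 8.27 CPM and then 11.2, 10.2 and 9.77 CPM (0.30 ± 0.09). CD55, which shields cells from complement, had 0.19 ± 0.06, WDR4 0.23 ± 0.07, STK39 0.18 ± 0.06, CCDC142 0.23 ± 0.08, CDCA2 0.23 ± 0.08 and GABPB1 0.15 ± 0.05. From ALDOC on, each of these had groups that did not overlap and an adjusted p of 0.909 or more. DESeq2 also called BLOC1S5-TXNDC5, a read-through of neighbouring genes that was at 0 in 4 of the 6 libraries and overlapped between the doses.

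Mitochondrial genome transcripts were lower at the medium dose in these libraries without passing the test. Of 15 tested, 0 were called in the main edgeR fit or by DESeq2 on the 54 libraries, and 0 had an unadjusted p under 0.05 in the main fit. A negative value was found for 14, with a list median of -0.199, and 10 were lower without overlap. Of all genes tested, 8189 of 16763 had a negative value and 5.70% were lower without overlap. The transcripts of this list are not independent of each other. Relative to the low-dose mean, the list's median was -0.235, -0.112 and -0.273 in the medium-dose libraries. At the high dose it was 0.016, 1.05 and -0.139, the 1.05 in the library that stands apart, so it did not step down further. Vehicle libraries, of another code set, were at 0.24, -0.1 and 0.079. MT-ND2, a subunit of complex I, was at 3450, 3610 and 4030 CPM and then 2890, 3030 and 2870 CPM (-0.34 ± 0.21). MT-CO2 had -0.27 ± 0.17 and MT-ATP6 -0.31 ± 0.19. Their share of all counts was 8.01% ± 0.0843 at the low dose and 7.09% ± 0.237 at the medium dose (SD, n = 3 each). The ranges were 7.91% to 8.08% and 6.88% to 7.34%, so the doses did not overlap, and the exact two-sided permutation p was 0.10, the smallest that 3 against 3 allows. With mitochondrial genes left out of the table, 6 genes were again called and the cholesterol list's median was -0.241. Other settings did call some of these transcripts. Without the low-count filter, edgeR on the 54 libraries called MT-ND1 (-0.34) and MT-ND2 (-0.33) lower. In the fit of the 6 libraries alone, MT-ND1, MT-ND2, MT-ND4 and MT-CYB were called lower. With a replicate block in these 6, MT-CO2 and MT-ND3 were among those called lower, and with DESeq2 on them MT-ATP6 was.

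**Figure D5:**
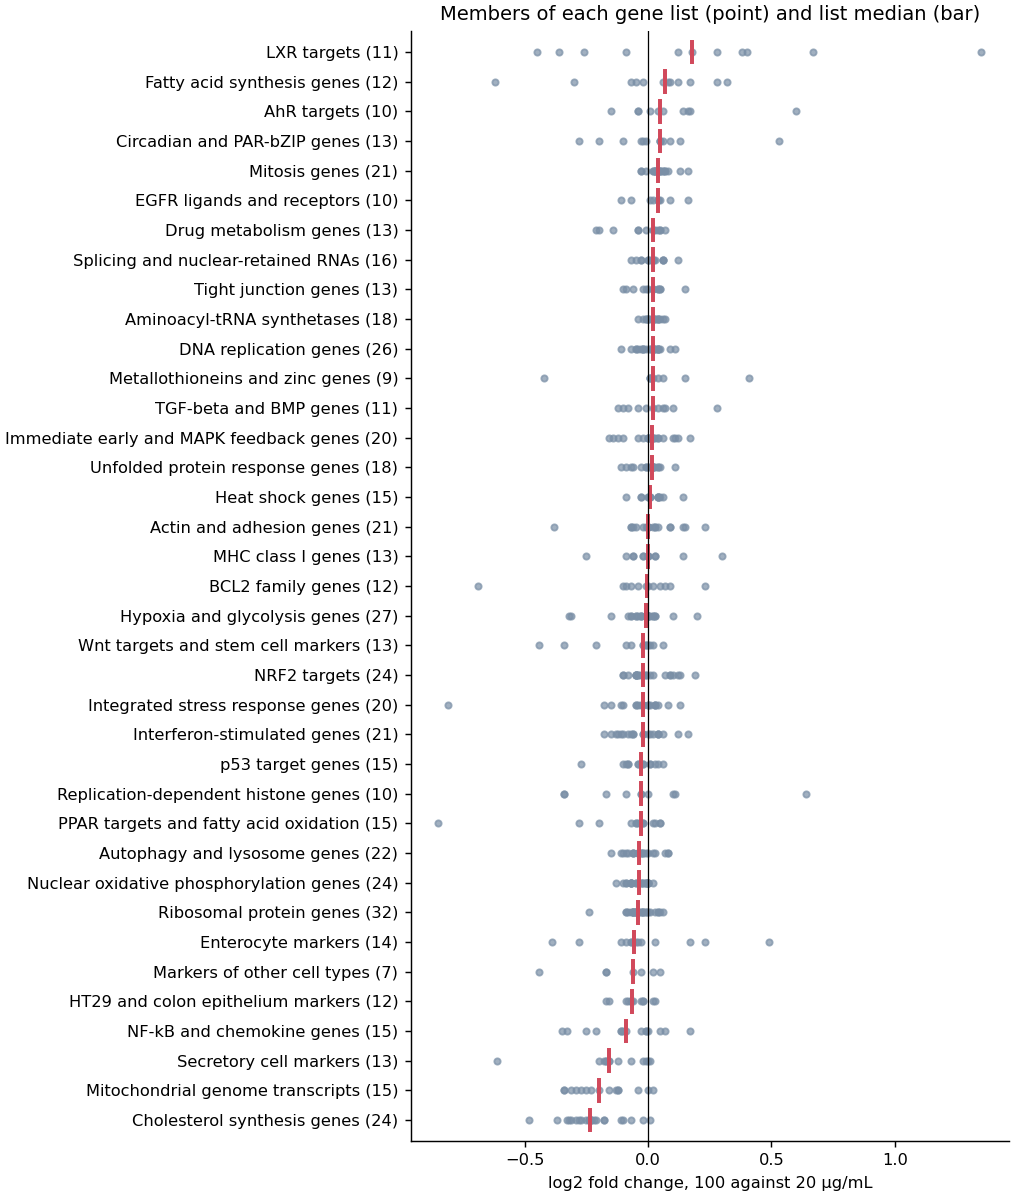
Log2 fold change of 100 over 20 µg/mL (horizontal axis) for the tested members (points) of each gene list (number of members in brackets), with the list median as a red bar. Cholesterol genes have the lowest median (-0.237) and LXR targets the highest (0.177).

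The other lists gave no call in edgeR's quasi-likelihood test or in DESeq2 on the same libraries. Of 10 targets of the aryl hydrocarbon receptor (AhR), a sensor of plant and pollutant aromatics, 0 were called and 3 were higher at an unadjusted p under 0.05. Over all genes tested, 0.889% were higher at that threshold. CYP1B1 was at 48.2, 49.3 and 54.4 CPM and then 57.9, 55.1 and 56.5 CPM (0.16 ± 0.08), TIPARP had 0.17 ± 0.08 and ALDH1A3 0.14 ± 0.07. The adjusted p of each was 1. CYP1A1, the classical AhR target, was at or under 0.733 CPM in all 6 libraries, with overlap. Of 24 NRF2 targets, the antioxidant program, 0 were called and 0 had an unadjusted p under 0.05, with a median of -0.018. The 18 unfolded protein response genes (0.013), 15 heat shock genes (0.012), 15 p53 targets (-0.027), 26 DNA replication genes (0.017) and 21 mitosis genes (0.043) likewise had 0 called and 0 with an unadjusted p under 0.05. Of 20 integrated stress response genes, 2 were lower at an unadjusted p under 0.05, NUPR1 (-0.81 ± 0.38) and TRIB3 (-0.15 ± 0.07). Over all genes tested, 1.16% were lower at that threshold. Secretory cell markers had a median of -0.155 over 13 genes, led by the mucin MUC13 (-0.17 ± 0.07). MUC13 was called lower, at -0.18, in 4 other settings: the 6 libraries alone, with and without a replicate block, DESeq2 on these 6, and the fit without the 3 libraries that stand apart. Enterocyte markers had a median of -0.055, with CEACAM6 at 0.17 ± 0.07.

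The same step of dose was then compared between Pinelliae Tuber and the other ethanol extracts with 3 libraries per dose, as a difference of differences in which no library is shared. Scutellariae Radix (skullcap root) has the same code set, while Zingiberis Rhizoma Recens (fresh ginger) and Zingiberis Rhizoma (dried ginger) are of another. Against Scutellariae Radix, 82 genes differed in their response (0.489% of 16763), with 34 higher and 48 lower for Pinelliae Tuber. This contrast includes Scutellariae Radix low-dose replicate 3, which stands apart (9.35% ribosomal protein, 18.52 M counts). Its count moved widely with the libraries used, as the last section gives. Against fresh ginger there were 2 (0.0119%), and against dried ginger 1 (0.00597%).

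ABCG1 differed from all 3 of these extracts. Its step from low to medium was larger for Pinelliae Tuber by 1.36 ± 0.17 than for Scutellariae Radix (adjusted p = 5.6e-07), by 1.36 ± 0.17 than for fresh ginger (adjusted p = 1e-05) and by 1.39 ± 0.16 than for dried ginger (adjusted p = 2.3e-06). The steps in those extracts were -0.01, -0.01 and -0.04. ACSS2 differed from Scutellariae Radix by -0.74 ± 0.09 (adjusted p = 9.1e-07) and from fresh ginger by -0.57 ± 0.09 (adjusted p = 0.00238). From dried ginger it differed by -0.48 ± 0.09, at an adjusted p of 0.0507 just over the threshold.

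MYLIP (0.47 ± 0.09, adjusted p = 0.0037), SQLE (-0.50 ± 0.06, adjusted p = 4.3e-07) and INSIG1 (-0.37 ± 0.07, adjusted p = 0.0037) differed from Scutellariae Radix as well. LSS did not pass that test (-0.26 ± 0.07, adjusted p = 0.0614). For SQLE the steps had opposite signs, since Scutellariae Radix gave 0.21 ± 0.04. Over the cholesterol list the median difference was -0.306 against Scutellariae Radix, with 2 genes lower and 0 higher, -0.216 against fresh ginger and -0.219 against dried ginger. The medians over all genes were 0.009, 0.005 and 0.003. The list's own medians in those extracts were 0.053, -0.013 and -0.034.

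AhR targets also differed from Scutellariae Radix. Between low and medium dose, 8 of 10 rose with Scutellariae Radix, where 362 of 16763 genes rose (2.16%), and the list median was 0.884. With Pinelliae Tuber 0 of 10 rose, with a median of 0.049. In the test of the difference 6 of the 10 were lower for Pinelliae Tuber (6 of the 82 genes called), among them CYP1A1 (-5.75 ± 0.49), CYP1B1 (-2.10 ± 0.11), ALDH1A3 (-1.74 ± 0.10) and TIPARP (-1.0 ± 0.11). ALDH3A1 (-1.18 ± 0.14) and UGT1A6 (-0.63 ± 0.10) complete the 6. The transporter SLC22A3, which is not of that list, was lower too (-1.17 ± 0.11). Genes higher for Pinelliae Tuber included CD200 (1.03 ± 0.12), the GABA receptor subunit GABRP (0.93 ± 0.11), CTGF (1.18 ± 0.20) and NOX1 (0.77 ± 0.12), an epithelial NADPH oxidase. For these 4 the Pinelliae Tuber step itself was small, at -0.05, 0.12, 0.23 and -0.18, and none passed its test.

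The 6 libraries held 22.13 to 27.90 M counts (M, 1e6), against 18.02 to 35.82 M over the 60, and 22102 to 22524 genes with a count. Totals overlapped between the doses. The 12 markers of colon epithelium were all detected, with a summed level of 11800 to 12400 CPM at the low dose and 11800 to 11900 CPM at the medium dose. Of 19 markers of other cell types, CDH5, COL1A2, COL3A1 and ALB were at 0 in all 3 low-dose libraries, and these and CD3E in the medium-dose libraries. Their summed level was 1950 to 2160 and 1980 to 2030 CPM, nearly all of it LYZ, which secretory epithelium also expresses. Of the 19, 13 were under 1 CPM in all 3 low-dose libraries and 12 in all 3 medium-dose libraries. Others were detected at low levels, with mean CPM at the low and medium dose of 5.86 and 5.24 for CD68 and 1.88 and 1.68 for PECAM1. The means of these 2, CD14 and COL1A1 were above those of the epithelial marker CDX1 (1.17 and 1.05 CPM).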

How the data were processed

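The authors deposited 1 table with an expected count, as estimated by RSEM, per Ensembl gene and library. RSEM 1.3.3, STAR 2.7.3a, Trim Galore 0.6.5 and FastQC 0.11.9 with hg38 are named per the submitters' processing notes. The strand setting and annotation release: not given in the sources used here. Reads of overlapping antisense genes may therefore be mixed. Columns were matched to samples by label codes, and 210 other columns were not used. Between 90.0% and 92.1% of a library's values were whole, and the others were rounded. Symbols and positions are from GENCODE 29 (GRCh38; 57055 of 60675 IDs matched).

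The main fit took 54 libraries of 19 groups (35 residual degrees of freedom) in edgeR 4.0.16 (R 4.3.3): filterByExpr, TMM, dispersions without tagwise values, robust glmQLFit and glmQLFTest, with Benjamini-Hochberg at 0.05. The biological coefficient of variation was 0.0855. The SE is the log2 fold change over the root of F. The code was tested on simulated data. Alternatives were DESeq2 1.42.0, its size factors, no low-count filter, tagwise dispersions, only the libraries compared, replicate blocks and each library left out. Fits without 3 libraries that stand apart, on code set 10, without mitochondrial genes, and DESeq2 on 6 libraries were added after seeing the data.

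Named genes are those called with an average log2 CPM above 2 and no overlap, the next by unadjusted p up to 12 each way, the 3 smallest p-values of each list, up to 5 genes each way per difference between extracts, and up to 5 genes that only DESeq2 or the fit of 6 libraries called. Beyond this rule, further members of the cholesterol, LXR and fatty acid lists, MT-ND1, MT-ND3, MT-ND4 and MT-CYB are named. They were chosen after their values were seen. Some genes that the rule selects are not reported here, though counts and medians of lists include them. The libraries and lists were chosen with earlier results of these data known.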

Additional observations from a re-analysis of the deposited data

Results flagged for a closer look

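The step from 20 to 100 µg/mL differed between Pinelliae Tuber and the other ethanol extracts in the test of the difference itself (edgeR's quasi-likelihood test, adjusted p under 0.05). This held for 82 genes against Scutellariae Radix, 2 against fresh ginger and 1 against dried ginger. The first of these contrasts includes a Scutellariae Radix low-dose library that stands apart. Of the genes called for Pinelliae Tuber itself, the log2 differences against Scutellariae Radix were 1.36 for ABCG1, 0.47 for MYLIP, -0.74 for ACSS2, -0.50 for SQLE and -0.37 for INSIG1. Against fresh ginger they were 1.36 for ABCG1 and -0.57 for ACSS2, and against dried ginger 1.39 for ABCG1.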

How the results depend on the processing

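The 6 genes called between the doses were 55 with no low-count filter (3 of the 6 among them), 22 in the 6 libraries alone, 51 there with the replicate number as a replicate block, 28 with DESeq2 there, 25 without the 3 libraries that stand apart and 2 in code set 10 alone. They were 9 with DESeq2, 6 with the replicate block within code set, and 4 to 8 with 1 library left out. Same-numbered libraries correlated at 0.0746, 0.195 and 0.0271, and differently numbered ones at -0.157 to 0.082. With 3 libraries per dose, these weak values cannot tell whether the numbers pair the samples. ABCG1 and ACSS2 were called in all 17 settings, MYLIP in 16, SQLE in 15, INSIG1 in 14 and LSS in 11. Among the genes followed across settings, those that changed sign include CD200 (-0.11 to 0.01), PECAM1 (-0.35 to 0.03) and the metallothionein MT1F (-0.02 to 0.3). The 82 differences from Scutellariae Radix were 125 with DESeq2, 214 unfiltered, 21 in the libraries compared, 291 without the 3, 17 in code set 10, and 60 to 137 with 1 library left out (137 without Scutellariae Radix low-dose replicate 2). The 2 from fresh ginger were 6 with DESeq2, 54 unfiltered, 5 without the 3, and 2 to 3 with 1 left out; the 1 from dried ginger was 3, 65, 3, and 1 to 2. The cause of these moves was not tested. The SE was 0.38 for NUPR1, under 1 CPM in each of the 6 libraries and 0.21 for the abundant MT-ND2.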
